A study of Mus musculus with 15 samples.

Results

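Kidney cells sorted as fibroblasts 14 days after folic acid were compared with those 3 days after it, on 3 arrays of each time, so 6 of the 15 arrays of the series. The arrays were chosen by their titles, and all genes were examined. Both groups were PDGFRa-positive cells taken by flow sorting from the kidneys of C57BL/6 adults given folic acid to injure the tubules, and no genetic change is named for them. Day 3 arrays carry the numbers 1, 2 and 3 and day 14 arrays the numbers 7, 8 and 9. The remaining arrays, 3 each at day 7 after folic acid, at day 14 of unilateral ureteral obstruction (UUO) and from uninjured kidney, helped to estimate the spread and to place the values. The labels do not tell if a group's 3 arrays stand for 3 animals. The p-values therefore reflect no more than how arrays vary within their groups, estimated from all 15 arrays. That variation may be technical.

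Folic acid in excess injures tubule cells, and the kidney then repairs itself in part. Interstitial fibroblasts, which carry the growth factor receptor PDGFRa, respond by dividing, by taking on contractile proteins and by laying down collagen, and such cells are called myofibroblasts. When injury ends the response can fade, whereas a blocked ureter keeps it going. The comparison of day 14 with day 3 asked how far the activated state had declined.

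Values are log2 RMA signals, written array by array, and changes are day 14 minus day 3 on the log2 scale with their standard error (SE). Calls needed an adjusted p below 0.05 in limma, with 13523 genes tested. The day 14 arrays resembled one another less than the day 3 arrays did, with correlations across genes (which are not replicates) of 0.889 to 0.901 against 0.931 to 0.937. The median SD of a gene was 0.298 at day 14 and 0.242 at day 3. Pdgfra, the gene of the sorting marker, read 5.00, 4.24 and 6.60 in day 14 arrays 7, 8 and 9 and 6.76, 6.11 and 7.20 in day 3 arrays 1, 2 and 3. The value of array 8 lay below 4.54, the lowest 40th percentile of any array. The groups overlapped and the change of -1.41 (SE 0.59, adjusted p = 0.251) was not called. It was -0.17 with the proximal tubule mean described next in the model and -0.09 with arrays 7 and 8 left out. With the mean of macrophage markers, described later, in the model it was -3.13 (adjusted p = 0.0724). Markers of proximal tubule, which a fibroblast sort should lack, averaged 9.16, 9.27 and 7.06 over 17 genes in day 14 arrays 7, 8 and 9, against 6.43, 6.30 and 6.42 in the day 3 arrays and 9.04 in uninjured kidney. Arrays 7 and 8 thus stood apart from array 9, so the comparison was also made with both left out and with this mean added to the model. Because the mean was higher in every day 14 array than in every day 3 array, that model separates it from the time only in part. In bulk RNA, fewer cells of a type and less RNA per cell cannot be told apart. Resident stromal genes averaged 7.36, 6.78 and 7.48 at day 14 and 7.53, 7.36 and 7.60 at day 3 over 20 genes.

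In all, 412 genes were called, which is 3.05% of those tested. Of these 165 were higher at day 14 (1.22% of genes tested) and 247 were lower (1.83%), with median changes of 1.65 and -1.57. Values of the groups did not overlap for 2653 genes (19.6%). A change of at least 2 on the log2 scale was reached by 54 of the higher and 71 of the lower genes. The count fell to 223, 155 and 199 without day 3 arrays 1, 2 and 3, and the lower genes fell to 160 without day 14 array 8. Adding the proximal tubule mean to the model left 81 calls. None of the 412 genes turned its sign in that model or with arrays 7 and 8 left out. The same arrays had chosen these genes, which favours kept signs, so this is no separate support. Another probe set was tested for 177 of the called genes, and in 62 of these it was called the same way and in 0 the opposite way. The calls of 37 higher and 82 lower genes held whichever single array was left out.

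Most genes named in the following lost their call in these models. Of the genes in the closing observations, Tsc22d3, Fkbp5, Zbtb16, Clec7a, Mmp12, Ptn, Itih5 and Epb41l4b stayed called with the tubule mean added. With the tubule mean added, the called genes of the present section that stayed called were Lrrn1, Clca3a1, Gem, Aldh1a1, Slc22a8 (itself part of that mean), Kl, H2-Aa, H2-Ab1, H2-Eb1, Cd74, Col6a1, Ccl5, Rsad2, Fos, Cd34, Podxl, Laptm5, Ctss and Fcer1g. With arrays 7 and 8 left out they were Lrrn1, Clca3a1, Gem, Aldh1a1, Slco2b1, Fbln5, H2-Aa, H2-Ab1, H2-Eb1, Cd74, Col6a2, Col14a1, Ogn, Ccl5, Cxcl10, Il1b, Cd34 and Ctss. Other probe sets of some genes hardly moved. They changed by -0.04 and 0.02 for Prr15, 0.06 for Aplnr, 0.40 for Slc22a8, 0.40 for Slc12a3, 0.52 for Kl, -0.09 for Pdlim7 and 0.10 and 0.63 for Rsad2, none of them called. Weaker and not called, among others, were those of Podxl (1.17), Kcnj1 (0.99), Laptm5 (0.75), Mt1 (-0.67) and Rrm2 (-0.58). The other probe set of Clca3a2 was called, at a change of -0.99.

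**Figure D1:**
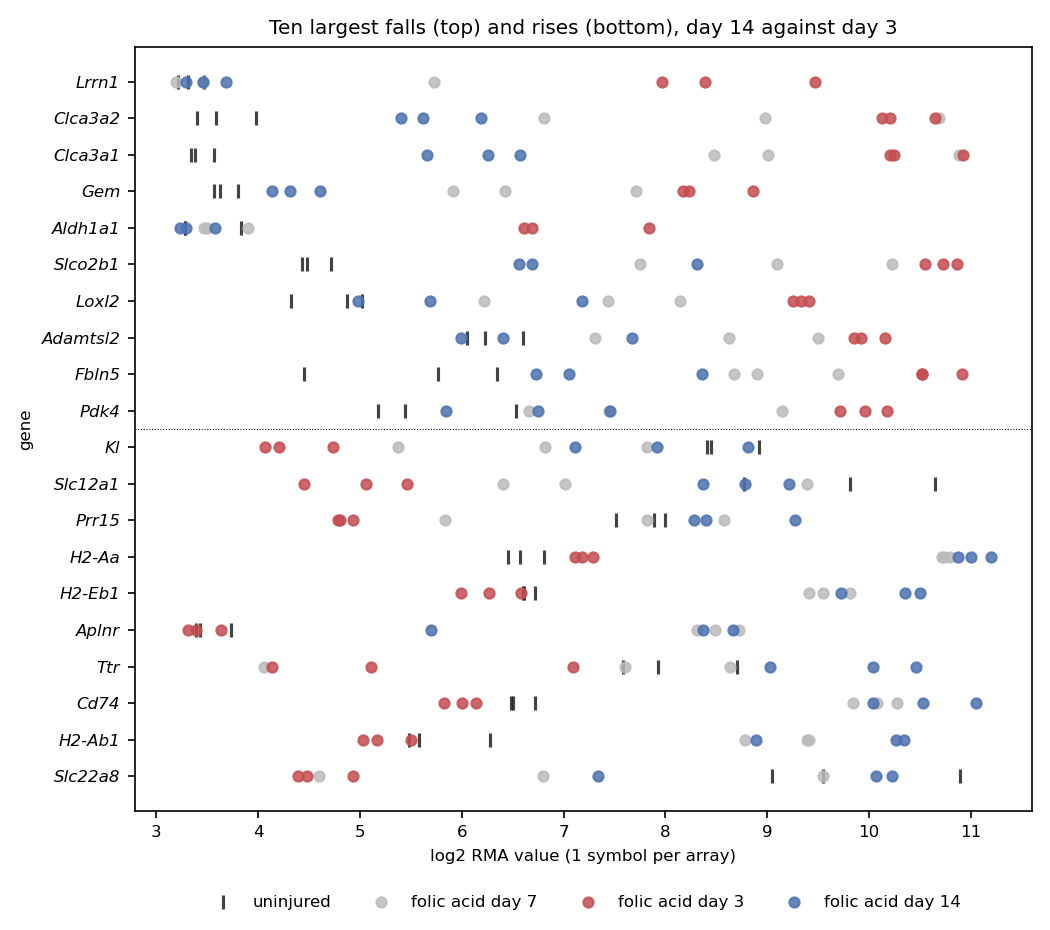
Log2 RMA values (horizontal axis) of the 10 genes with the largest called falls and the 10 with the largest called rises, 1 symbol per array: red for day 3, blue for day 14, grey for day 7 and black ticks for uninjured kidney. Blue and red symbols do not overlap for any of the 20 genes, by the rule that chose them; Lrrn1 and Aldh1a1 at day 14 lie close to the uninjured ticks, while H2-Aa, H2-Ab1, H2-Eb1 and Cd74 lie far above them.

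The deepest fall was that of Lrrn1, which encodes a leucine-rich repeat membrane protein. It read 3.46, 3.29 and 3.68 at day 14 and 9.47, 8.39 and 7.97 at day 3, a 35.2-fold difference (log2 -5.14, SE 0.58, adjusted p = 0.000938). The day 14 values lay beside the uninjured mean of 3.33, near the bottom of the scale, where folds are compressed. Aldh1a1, an enzyme that makes retinoic acid, behaved alike, at 3.23, 3.58 and 3.29 against 7.84, 6.69 and 6.61 (log2 -3.68, SE 0.29, adjusted p = 4.53e-05) and an uninjured mean of 3.46. Its day 7 mean of 3.62 was already as low. Gem, a small GTPase that restrains calcium channels, fell from 8.86, 8.17 and 8.23 to 4.14, 4.31 and 4.61 (log2 -4.07, SE 0.36). Gem, Lrrn1 and Aldh1a1 kept their calls with the proximal tubule covariate, with arrays 7 and 8 left out, and without any single array.

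Clca3a1 and Clca3a2, closely related genes whose signals may not be separate, fell by 4.29 and 4.59 on the log2 scale. Clca3a1 went from 10.92, 10.25 and 10.21 to 5.66, 6.57 and 6.26, still far above its uninjured mean of 3.43. The organic anion transporter Slco2b1 (-3.53), the elastic fibre protein Fbln5 (-3.27) and Pdk4 (-3.26), a kinase that turns mitochondria from glucose to fat, fell too. Slco2b1 read 8.31 in day 14 array 7 and 6.56 and 6.69 in arrays 8 and 9, all below the day 3 range of 10.55 to 10.86. Adamtsl2 (-3.29), which binds fibrillin microfibrils, lost its call when any 1 of day 3 arrays 1, 2 and 3 or day 14 array 8 was left out (adjusted p up to 0.0591). With the proximal tubule covariate Clca3a2 (-3.42, adjusted p = 0.0658), Slco2b1 (-2.78, 0.0963), Fbln5 (-2.92, 0.0629), Pdk4 (-3.09, 0.103) and Adamtsl2 (-2.55, 0.193) kept their direction and were no longer called.

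At the other end stood genes of antigen presentation by class II molecules of the major histocompatibility complex. These proteins show peptides to helper T cells and are typical of dendritic cells, macrophages and B cells. Of 11 antigen presentation genes tested 6 rose and none fell, with a median change of 1.65 beside -0.006 over all genes. A fit to only the 6 arrays compared called 4 higher. H2-Aa, the class II alpha chain, read 10.87, 11.00 and 11.20 at day 14 and 7.11, 7.29 and 7.18 at day 3 (14.2-fold, log2 3.83, SE 0.17, adjusted p = 3e-07), the smallest adjusted p of the genes named here. H2-Ab1, its partner beta chain, stood at 10.26, 8.89 and 10.34 against 5.17, 5.03 and 5.50 (24.2-fold, log2 4.59, SE 0.35). H2-Eb1 reached 10.35, 9.72 and 10.50 from 5.99, 6.27 and 6.58 (log2 3.91, SE 0.20). In all of these the day 14 arrays lay at least 3 log2 units above the day 3 arrays, and day 14 array 8 was the lowest for H2-Ab1 and H2-Eb1.

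Cd74, the invariant chain that guides class II molecules through the cell, rose from 6.00, 5.83 and 6.14 to 10.53, 10.04 and 11.05 (log2 4.55, SE 0.30, adjusted p = 1.21e-05). All of H2-Aa, H2-Ab1, H2-Eb1 and Cd74 stayed called with the proximal tubule covariate (3.88 to 4.66), with the macrophage mean in the model, with arrays 7 and 8 left out and without any single array. H2-DMa (1.65), which loads peptides, and the class I gene H2-K1 (1.43) rose as well and were named after their values were seen. Neither was called with the proximal tubule or the macrophage covariate. Ciita, the master activator of class II genes, stood at 4.96, 4.99 and 4.94 at day 14 and 5.02, 4.94 and 5.14 at day 3, with a change of -0.07 (SE 0.14, adjusted p = 0.876). Its values lay close to the array medians of 4.93 to 5.06, so this probe set says little about so dim a transcript.

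Class II genes share a promoter layout that ends in a CCAAT box, read by the factor NF-Y, and the 250 bases before the start of H2-Aa and H2-Eb1 are shown for that reason. They are RefSeq sequences of GRCm38.p6, 5′ to 3′ on the gene's own strand, with CCAAT or its reverse complement ATTGG in capitals. H2-Aa lies on the minus strand at chr17:34287824-34288073 and H2-Eb1 on the plus strand at chr17:34305617-34305866.
H2-Aa: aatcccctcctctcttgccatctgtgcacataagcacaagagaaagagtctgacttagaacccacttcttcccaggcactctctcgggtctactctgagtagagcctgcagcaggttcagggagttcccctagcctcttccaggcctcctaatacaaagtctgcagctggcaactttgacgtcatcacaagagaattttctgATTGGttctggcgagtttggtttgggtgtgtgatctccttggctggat
H2-Eb1: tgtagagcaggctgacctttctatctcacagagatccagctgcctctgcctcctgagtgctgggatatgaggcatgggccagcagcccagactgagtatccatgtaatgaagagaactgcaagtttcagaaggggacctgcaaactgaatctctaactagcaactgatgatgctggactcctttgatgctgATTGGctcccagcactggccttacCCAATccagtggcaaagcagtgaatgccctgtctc
The box began 48 bases before the start in H2-Aa, and 59 and 35 bases before it in H2-Eb1. Counting both strands and every listed start of a gene, 4 of the 4 called genes with an entry (also H2-DMa and H2-K1) held CCAAT, as did 37.5% of 27025 genes. This motif was looked for after the rise had been seen, and a match is no proof of binding.

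Macrophage and dendritic cell markers moved in the same direction as class II genes. Of 23 tested, 8 rose and none fell, and all 23 changes were positive (median 1.66). Lyz2, the lysozyme of macrophages, stood at 10.55, 10.15 and 10.87 against 7.29, 7.49 and 7.21 (9.14-fold, log2 3.19, SE 0.51, adjusted p = 0.00631), and 4.34 in uninjured kidney. Its call ended with the tubule mean in the model (3.13, adjusted p = 0.0658) and with the macrophage mean in the model (2.54, adjusted p = 0.151). The macrophage mean includes Lyz2 itself, so that model takes out part of the gene's own change. With arrays 7 and 8 left out the change was 3.54. Laptm5, a lysosomal protein of blood cells, rose by 1.66 (SE 0.28). The protease Ctss rose by 2.79 (SE 0.51) and the Fc receptor chain Fcer1g by 1.98 (SE 0.38). The call of Ctss ended without day 3 array 3 (adjusted p = 0.0552) and that of Fcer1g without day 3 array 1 (adjusted p = 0.0612).

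The mean of the macrophage markers was 7.97, 6.56 and 8.01 in day 14 arrays 7, 8 and 9 and 5.61, 5.99 and 5.94 in day 3 arrays 1, 2 and 3, so that array 8 lay between the others. Without array 8, 17 of the 23 were called, and without day 3 arrays 1, 2 and 3 it was 3, 4 and 3. Without day 14 arrays 7 and 9 it was 4 each, and in a fit to only the 6 arrays compared it was 2. Adgre1, a surface antigen of macrophages, named after its values were seen, shows the split, at 7.75, 5.40 and 6.09 against 4.92, 4.84 and 4.83. Its change of 1.55 was not called (SE 0.43, adjusted p = 0.0752) and was called without array 8 (adjusted p = 0.0172). The part of these cells in the class II rise was not tested beyond the macrophage covariate, with which the 4 genes kept their calls. As the macrophage mean was higher in every day 14 array than in every day 3 array, that model separates it from the time only in part.

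Lymphocyte markers gave no call among 7 (median 0.11), with Cd3e of T cells at 0.65 (adjusted p = 0.283) and Cd79a of B cells at 0.23 (adjusted p = 0.507). No neutrophil marker of 6 was called, and S100a8 read 5.82, 5.17 and 7.51 against 4.24, 4.20 and 3.69 (2.12, SE 0.58, adjusted p = 0.0756). Without array 8 it was called (adjusted p = 0.0459).

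Among 19 chemokines and cytokines 3 rose and 2 fell. Ccl5, which draws T cells and monocytes, went from 4.65, 4.75 and 5.00 to 6.73, 6.27 and 6.58 (3.31-fold, log2 1.73, SE 0.22, adjusted p = 0.00172), and held its call without any single array and with the proximal tubule covariate. Cxcl12, a chemokine made by stromal cells, fell from 9.12, 8.64 and 9.06 to 6.80, 5.56 and 6.58 (log2 -2.63, SE 0.40, adjusted p = 0.00579). It was not called with the tubule mean added (-2.23, adjusted p = 0.0803) or with arrays 7 and 8 left out (-2.36, adjusted p = 0.0793), and its other probe sets changed by -0.20 and -1.70, neither called. The fall of the stromal alarmin Il33 (-2.07, SE 0.43) ended when any of day 3 arrays 1, 2 and 3 or day 14 array 8 was left out (adjusted p up to 0.0831). Cxcl10 (1.19), an interferon-induced chemokine, and Il1b (1.70), named after its values were seen, lost their calls when any of day 3 arrays 1, 2 and 3 or day 14 arrays 7 and 9 was left out (adjusted p up to 0.0812 and 0.125). The monocyte chemokine Ccl2 differed by 0.62 (SE 0.61, adjusted p = 0.691), with only array 7, at 7.44, above the rest.

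Complement genes were called in 2 of 13 cases, both higher (median 0.87). C3ar1, the C3a receptor of myeloid cells, rose by 1.01 (SE 0.17, adjusted p = 0.00748). Cfp, properdin of leukocytes, rose by 1.26 (SE 0.26), a call that ended without day 3 array 2 or 3 or day 14 array 7 (adjusted p up to 0.0823). Of 20 interferon response genes 1 was called, the antiviral Rsad2 (1.71, SE 0.33), and its call ended without day 3 array 2 or 3 or day 14 array 8 (adjusted p up to 0.066). The median of that list was 0.08.

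Collagen genes moved down. Of 16 fibrillar and associated collagens 6 fell and none rose, and 15 of the changes were negative (median -1.13). The mean of the list was 8.18, 7.52 and 8.47 in the day 14 arrays and 9.29, 9.09 and 9.22 in the day 3 arrays, with 5.69 in uninjured kidney. Every day 14 array therefore lay below every day 3 array and well above the uninjured mean. The called members were Col5a1, Col5a3, Col6a1, Col6a2, Col6a3 and Col14a1, minor fibrillar, filament-forming and fibril-associated chains. Col5a1 (-1.38) and Col5a3 (-1.46) were named after their values were seen.

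The 3 listed chains of collagen VI, which forms beaded filaments around cells, fell together. Col6a1 read 9.34, 8.85 and 9.65 against 10.94, 11.03 and 11.15 (3.39-fold, log2 -1.76, SE 0.26, adjusted p = 0.00532). Col6a2 fell by 1.82 (SE 0.28) and Col6a3 by 2.03 (SE 0.39), the latter not called without day 3 array 2 or 3 (adjusted p up to 0.0652). Col14a1, which sits on fibril surfaces, showed the largest fall, from 9.30, 8.76 and 9.20 to 7.49, 6.09 and 5.28 (log2 -2.80, SE 0.46, adjusted p = 0.00741). Array 9, the one with the lowest tubule signal, was the lowest of the 3 for Col14a1 and the highest for Col6a1.

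The chains of the main fibrils were not called. Col1a1 read 11.25, 10.62 and 11.64 against 11.88, 12.09 and 12.18 (-0.88, SE 0.22, adjusted p = 0.0546). Its groups did not overlap, and it was called without array 9 (adjusted p = 0.0166). Col3a1 read 11.31, 10.68 and 11.89 against 12.00, 12.00 and 12.05 (-0.72, SE 0.42, adjusted p = 0.438). With the tubule mean added Col1a1 stood at -0.68 and Col3a1 at 0.01, and with arrays 7 and 8 left out at -0.41 and -0.13. The macrophage mean in the model moved them the other way, to -1.59 (adjusted p = 0.0186, called) and -1.58 (adjusted p = 0.27). That model separates its mean from the time only in part. None of the p-values above 0.05 shows equal levels. Col1a2, named after its values were seen, stayed below 4.54, the lowest 40th percentile of any array, in all 6 arrays, so its probe set was too dim to use. With the proximal tubule covariate 1 collagen, Col6a1, was called (-1.14, adjusted p = 0.0406), and with arrays 7 and 8 left out 2 were. Leaving out 1 array at a time gave 4, 3 and 3 called collagens for day 3 arrays 1, 2 and 3 and 4, 4 and 9 for day 14 arrays 7, 8 and 9. Only 1 collagen was called in a fit to only the 6 arrays compared. The model with the macrophage mean called 8 of them, all lower. The collagen mean was lowest in array 8, which also had the highest proximal tubule and distal nephron means; the part of tubule RNA in the fall was not tested beyond these settings.

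Enzymes that fold and crosslink collagen gave 4 falls and no rise among 17 genes (median -0.58). In a fit to only the 6 arrays compared 0 were called, and with the macrophage mean in the model 4 were called lower. Loxl2, a lysyl oxidase that also crosslinks basement membrane collagen, read 5.69, 4.98 and 7.18 against 9.25, 9.33 and 9.41 (10.4-fold, log2 -3.38, SE 0.52, adjusted p = 0.00579). Lox, the founding lysyl oxidase, read 6.04, 4.71 and 7.56 against 9.10, 9.43 and 9.53 (log2 -3.25, SE 0.59). Array 9 kept the highest values of both and array 8, at 4.98 and 4.71, was beside the uninjured means of 4.74 and 4.99. The call of Lox ended without day 3 array 2 (adjusted p = 0.0517). Crtap (-1.19), part of the prolyl hydroxylation complex, lost its call without day 3 array 2 or 3 or day 14 array 8, and Loxl3 (-1.30) without any of 5 arrays, all but day 3 array 1 (adjusted p up to 0.0647 and 0.146). None of the 4 was called with the proximal tubule covariate, where Loxl2 stood at -2.39 (adjusted p = 0.0695) and Lox at -2.08 (adjusted p = 0.15), or with arrays 7 and 8 left out.

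Matrix glycoproteins and proteoglycans were mixed, with 1 rise and 2 falls among 24 (median -0.27). Ogn, the small proteoglycan osteoglycin, fell from 9.91, 9.15 and 9.34 to 7.08, 7.53 and 6.27 (log2 -2.50, SE 0.41, adjusted p = 0.00732), alongside Fbln5. Ltbp2, which lies on elastic microfibrils, went the other way, from 6.25, 6.45 and 7.30 to 9.16, 7.86 and 8.71 (3.76-fold, log2 1.91, SE 0.34, adjusted p = 0.0124). Its day 7 mean of 9.40 was higher still, and the call ended without day 3 array 1 or 2 (adjusted p up to 0.0544). Fibronectin (Fn1, -0.31, adjusted p = 0.723) and tenascin C (Tnc, 0.12, adjusted p = 0.955) overlapped between the times, and Fn1 turned to 0.32 with the tubule mean added. With the macrophage mean in the model they stood at -1.55 (adjusted p = 0.0578) and -1.93 (adjusted p = 0.172). Ogn (-2.12, adjusted p = 0.0977) and Ltbp2 (1.84, adjusted p = 0.101) were not called with the tubule mean added. Postn, the matricellular protein of activated fibroblasts, read 7.16, 5.10 and 7.66 against 9.33, 9.66 and 9.68, and a change as large as -2.91 was not called (SE 0.85, adjusted p = 0.0918).

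Proteases that cut matrix gave 3 falls and 1 rise among 18 genes (median -0.51). The aggrecanase Adamts4 fell by 1.87 (SE 0.38), Adamts1 by 1.84 (SE 0.44) and the stromelysin Mmp3 by 2.10 (SE 0.44), whereas the gelatinase Mmp2 rose from 6.63, 6.13 and 6.29 to 8.26, 7.32 and 8.35 (log2 1.63, SE 0.36, adjusted p = 0.0329). Each of these calls ended when any 1 of several arrays was left out. For Adamts4 these were day 3 arrays 2 and 3 and day 14 array 8, for Mmp3 day 3 arrays 1 and 2 and day 14 array 8, for Adamts1 every array but 9, and for Mmp2 every array but 8 (adjusted p up to 0.0788, 0.0905, 0.126 and 0.106). The protease inhibitor Timp1 differed by -1.0 (SE 0.38, adjusted p = 0.195), and was called with the macrophage mean in the model (-2.55, adjusted p = 0.00483). In the basement membrane list 2 of 13 fell, Col4a1 (-1.67, SE 0.35) and Lama2 (-1.73, SE 0.41), both lost when any array but array 9 was left out (adjusted p up to 0.0863 and 0.129).

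**Figure D2:**
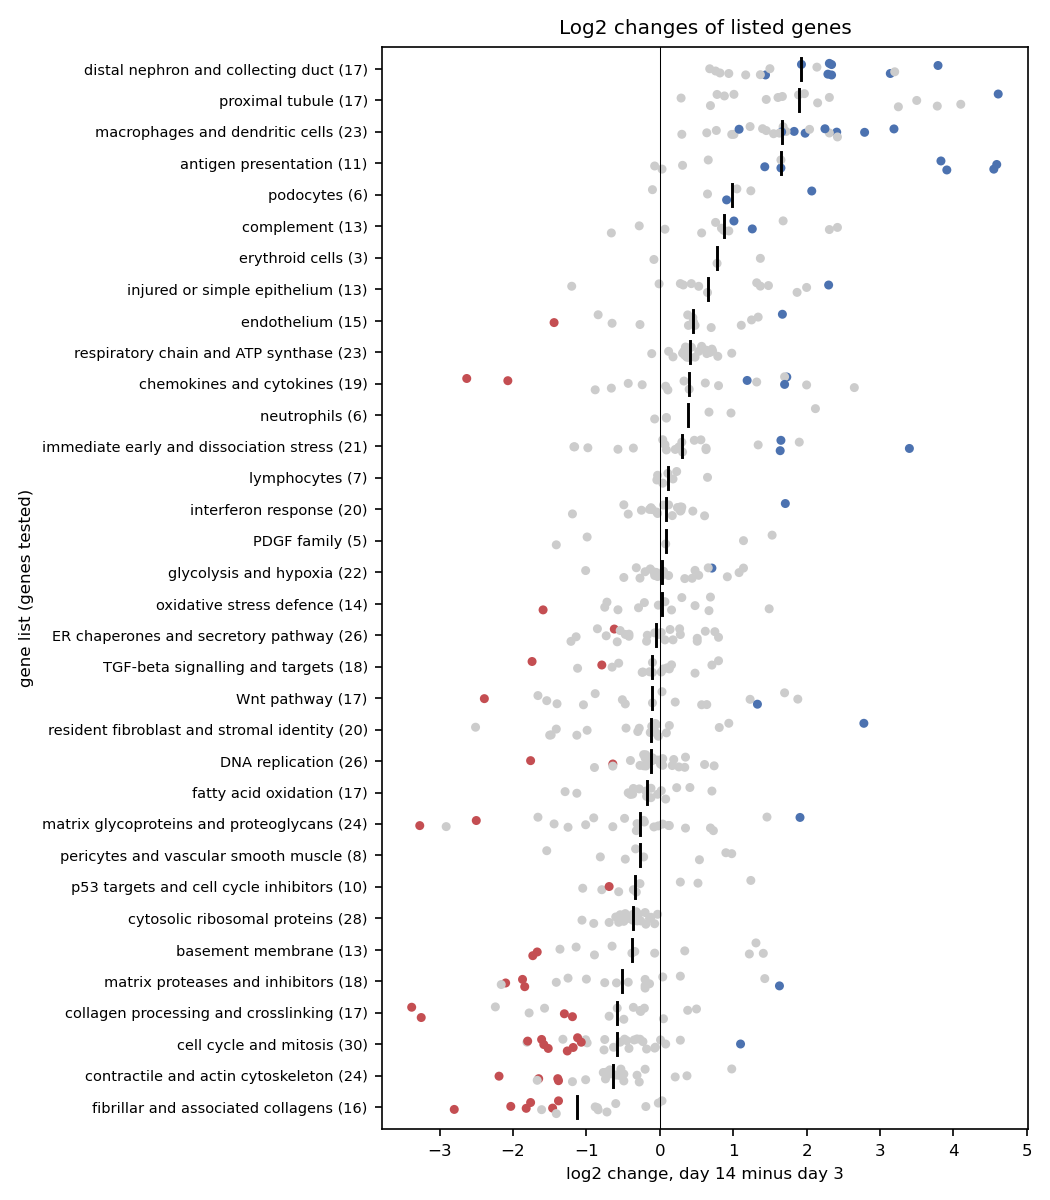
Log2 change, day 14 minus day 3, of each tested gene (1 point) of the 34 gene lists, ordered by the list median (black tick); blue points were called higher, red points called lower and grey points not called. Collagens sit lowest, with a median of -1.13, and distal nephron markers highest, at 1.93; the ribosomal proteins lie below 0 with no call.

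Contractile and actin cytoskeleton genes gave 4 falls and no rise among 24 (median -0.63). From only the 6 arrays compared 0 were called, and with the macrophage mean in the model 2 were called lower. Acta2, smooth muscle actin and the usual myofibroblast marker, read 10.07, 10.79 and 11.26 against 12.10, 12.18 and 11.97 (2.6-fold, log2 -1.38, SE 0.23, adjusted p = 0.00752). All day 14 values lay below the day 3 range, above the uninjured mean of 8.29 and below the UUO mean of 12.02. The call held without any single array. It was lost after the tubule mean was added (-1.18, adjusted p = 0.1) and with arrays 7 and 8 left out (-0.82, adjusted p = 0.0746). Another probe set of Acta2 changed by -0.42 (SE 0.56, adjusted p = 0.804). The non-muscle myosin Myh9 (-1.39, SE 0.26) was not called without day 3 array 2 or 3 (adjusted p up to 0.0622). Tropomyosin Tpm2 (-1.65, SE 0.39) and the actin-binding Pdlim7 (-2.19, SE 0.54) lost their calls without any 1 array but array 9 (adjusted p up to 0.139 and 0.158).

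Signalling lists had medians near 0, though changes of single Wnt genes ran from -2.39 to 1.88. Their calls stand beside a share of 3.05% called over all genes tested. Of 18 TGF-beta genes 2 fell (median -0.10), the co-receptor Tgfbr3 (-1.74, SE 0.33) and the shared signal carrier Smad4 (-0.79, SE 0.18). Their calls ended without any of day 3 arrays 1 and 2 and day 14 array 8 for Tgfbr3, and without any array but array 8 for Smad4 (adjusted p up to 0.0618 and 0.111). None of 5 PDGF family genes was called in limma, and the ligand Pdgfc came nearest (1.53, SE 0.44, adjusted p = 0.0893), called without array 7 (adjusted p = 0.0428) and also with the mean of probe sets. Pdgfrb, the sister receptor of pericytes and fibroblasts, differed by -0.99 (SE 0.36, adjusted p = 0.176). Its change was -0.15 with the tubule mean added and -2.01 (adjusted p = 0.0669) with the macrophage mean in the model. In the Wnt list 1 of 17 rose and 1 fell. Nkd2, an inhibitor inside the cell, stood at 7.71, 7.37 and 8.04 against 6.25, 6.42 and 6.44 (log2 1.33, SE 0.26), below its day 7 mean of 9.65. Its call ended without any of the day 3 arrays (adjusted p up to 0.0636). The secreted antagonist Frzb fell by 2.39 (SE 0.55), with array 9 at 8.09 close to the day 3 range of 8.95 to 9.07, and lost its call without any array but array 9 (adjusted p up to 0.104).

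Genes of cell division were lower at day 14. Of 30 cell cycle and mitosis genes 8 fell and 1 rose (median -0.58). A fit to only the 6 arrays compared, which takes no spread from the other groups, called 0 of the list lower and 1 higher. With the macrophage mean in the model, 1 was called lower and 1 higher. Birc5, or survivin, of the chromosomal passenger complex, read 5.88, 5.45 and 5.72 against 6.51, 7.79 and 7.30 (2.86-fold, log2 -1.52, SE 0.26, adjusted p = 0.00974). Racgap1, which works at the cleavage furrow, fell by 1.07 (SE 0.18, adjusted p = 0.00752), and the mitotic cyclin Ccnb2 went from 6.18, 6.97 and 5.59 to 4.73, 4.42 and 4.77 (log2 -1.61, SE 0.28, adjusted p = 0.0105). These 3 kept their calls without any single array and were no longer called after the tubule mean was added (adjusted p = 0.0825 to 0.105), at changes of -1.02 to -1.51. Their day 14 means lay close to uninjured kidney, for instance Ccnb2 at 4.60 there. The other falls were those of Kif20a, Ube2c, Anln, Nusap1 and Ccna2, named after their values were seen.

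Ccnd1, the cyclin of early G1, was the member that rose, from 6.57, 6.30 and 6.65 to 7.61, 7.76 and 7.45 (2.14-fold, log2 1.10, SE 0.18, adjusted p = 0.00631), towards an uninjured mean of 8.46. Its call too ended with the tubule mean added (0.86, adjusted p = 0.0945) and with arrays 7 and 8 left out (0.94, adjusted p = 0.156). The proliferation marker Mki67 read 5.30, 6.83 and 8.13 against 8.83, 9.02 and 7.85, so array 9 reached the day 3 range, and -1.81 was not called (SE 0.75, adjusted p = 0.243). Among 26 DNA replication genes 2 fell, the nucleotide reductase subunit Rrm2 (-1.76, SE 0.37) and the helicase subunit Mcm4 (-0.64, SE 0.16). Rrm2 was not called without day 3 array 1 or 2 or day 14 array 7 or 8 (adjusted p up to 0.087), nor Mcm4 without any array but array 9 (adjusted p up to 0.157). Cdkn2c (-0.69, SE 0.16), an inhibitor of the G1 kinases, was the 1 call among 10 p53 targets and cell cycle inhibitors, and was lost without any array but array 7 (adjusted p up to 0.109).

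Many mitotic genes carry CCAAT boxes near their start, and a further element, the CHR, through which they are kept silent outside division. The 250 bases before the start of Ccnb2 are printed because they hold both (RefSeq, GRCm38.p6, minus strand, chr9:70421555-70421804, 5′ to 3′), with CCAAT and the CHR letters TTTGAA in capitals.
Ccnb2: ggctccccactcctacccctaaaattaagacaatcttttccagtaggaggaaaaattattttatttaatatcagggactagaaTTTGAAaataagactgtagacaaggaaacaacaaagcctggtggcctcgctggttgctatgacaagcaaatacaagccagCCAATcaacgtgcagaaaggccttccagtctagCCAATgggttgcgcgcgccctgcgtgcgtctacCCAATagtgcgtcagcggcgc
The CCAAT boxes began 87, 54 and 21 bases before the start and the CHR match 167 bases before it. Over both strands, CCAAT was found in 3 of the 6 called mitotic genes with an entry and in 37.5% of all genes. TTTGAA was found in 2 of 6 and in 18.3%, and the variant TTCGAA in 0 of 6 and in 1.55%. Birc5 held no such motif, and Racgap1 held a CCAAT box without a CHR. Ccnb2 is thus an example picked for its matches, and a match is no proof of binding.

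Tubule transcripts were the other large group that was higher at day 14. Of 17 distal nephron and collecting duct markers 8 rose and none fell, and all 17 changes were positive (median 1.93). Slc12a3, the salt transporter of the distal convoluted tubule, read 8.54, 9.33 and 8.42 against 5.01, 6.30 and 5.57 (8.81-fold, log2 3.14, SE 0.43, adjusted p = 0.00318), and 9.43 in uninjured kidney. Slc12a1, its relative in the thick ascending limb, read 8.78, 9.21 and 8.37 against 5.46, 5.06 and 4.45 (log2 3.79, SE 0.66). Both kept their calls without any single array. The potassium channel Kcnj1 (2.34) lost its call without day 3 array 1 or 3, and the anion exchanger Slc26a4 (1.93) without day 3 array 1 or 2 (adjusted p up to 0.0528 and 0.0781). Without day 3 arrays 1, 2 and 3 the count of 8 became 2, 3 and 4, and without day 14 array 8 it became 4. In a fit to only the 6 arrays compared it was 7.

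All 17 proximal tubule markers were higher too (median 1.89), but 1 was called. That gene, Slc22a8, an organic anion transporter, read 10.23, 10.07 and 7.34 against 4.93, 4.39 and 4.48 (24.5-fold, log2 4.61, SE 1.06, adjusted p = 0.0381), the largest rise among the genes named here. The call ended without any 1 of the day 3 arrays or day 14 arrays 7 and 8 (adjusted p up to 0.117), and without array 9 there were 4 called proximal tubule markers. Pck1, an enzyme of glucose synthesis and the most variable gene at day 14, read 7.42, 11.12 and 5.30 against 4.48, 4.43 and 4.42 (3.50, SE 1.38, adjusted p = 0.216). Hsd3b4, a steroid dehydrogenase among the 6 most variable genes, read 9.85, 9.64 and 5.90 against 5.49, 5.30 and 5.32. Array 9 thus carried proximal tubule signal far below that of arrays 7 and 8, while its distal nephron mean of 7.79 was close to their 8.06 and 8.54. The day 3 distal means were 6.10, 6.36 and 6.26.

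Kl, or klotho, an anti-ageing co-receptor of the distal tubule, read 7.92, 8.81 and 7.11 against 4.74, 4.21 and 4.07 (12.2-fold, log2 3.61, SE 0.52, adjusted p = 0.00422), and stayed called with the proximal tubule covariate (2.25, adjusted p = 0.0139). Ttr (4.40), the thyroid hormone carrier, and Prr15 (3.81) rose as well, though another probe set of Ttr changed by 1.62 and was not called. The call of Ttr ended without day 3 array 1 or 3 or day 14 array 7 or 8, and that of Prr15 without any day 3 array or day 14 array 7 (adjusted p up to 0.118 and 0.065). Cdh16, the cadherin of kidney epithelium, was the 1 call among 13 genes of injured or simple epithelium (2.30, SE 0.43), lost without day 3 array 1 or 2 (adjusted p up to 0.0541). With the proximal tubule covariate Ttr (2.24), Prr15 (2.63), Slc12a1 (2.77), Slc12a3 (2.53), Kcnj1 (1.81), Slc26a4 (1.69) and Cdh16 (1.21) were higher and not called.

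With arrays 7 and 8 left out no tubule marker of either list was called, and Slc12a3 stood at 2.79 (adjusted p = 0.0793). With the distal nephron mean as a covariate, chosen after the data were seen, 5 genes were called in all, including H2-Aa. That mean is higher in every day 14 array than in every day 3 array, so this model can hardly separate the marker from the time. For the lower genes as a group, the median change of -1.57 became -1.26 with the proximal tubule covariate and -1.35 with arrays 7 and 8 left out. For the higher genes 1.65 became 1.37 and 1.58. These medians are descriptions only, since the same arrays had chosen the genes.

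**Figure D3:**
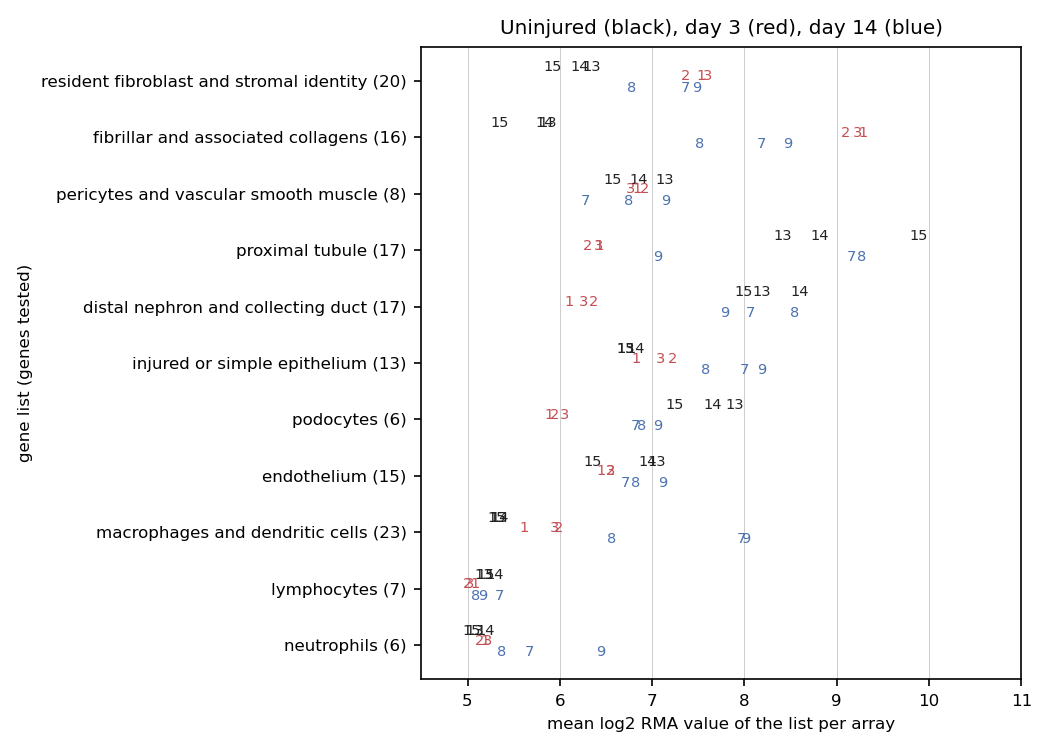
Mean log2 RMA value of the tested markers of 11 lists (horizontal axis), 1 number per array: black 13 to 15 for uninjured kidney, red 1 to 3 for day 3 and blue 7 to 9 for day 14. Proximal tubule means of arrays 7 and 8 lie at 9.16 and 9.27 and that of array 9 at 7.06, distal nephron means of all 3 lie above day 3, and collagen means of all 3 lie below it.

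**Figure D4:**
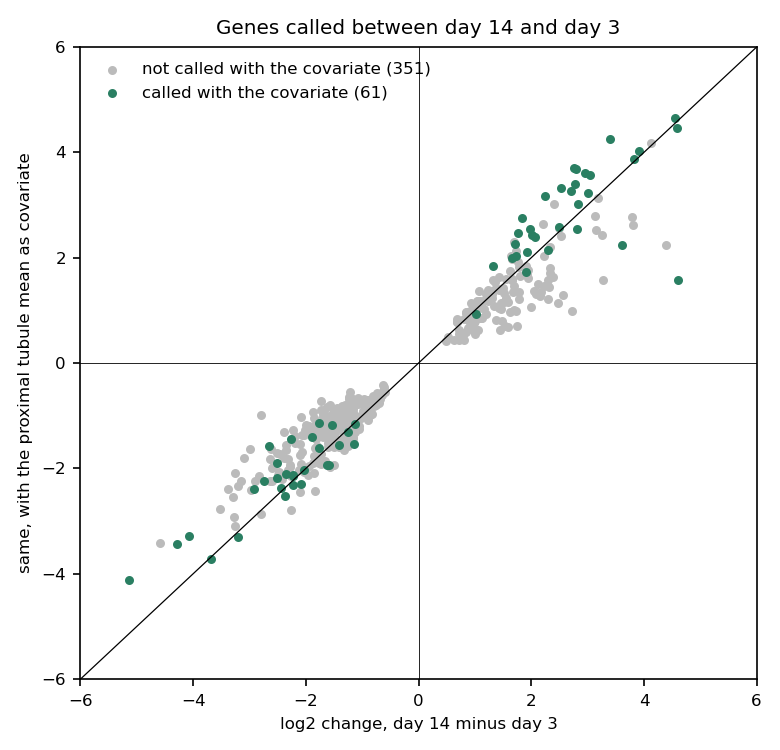
Log2 change of the 412 called genes (horizontal axis) against the change with the proximal tubule mean in the model (vertical axis); the diagonal marks equal values. All points keep their sign, and 61 of them, in green, were also called with the covariate. The same arrays had chosen these genes.

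Podocyte markers gave 2 rises among 6 (median 0.98). Podxl, the surface sialoprotein of podocytes and endothelium, read 8.75, 9.10 and 8.99 against 6.30, 7.69 and 6.64 (log2 2.07, SE 0.33, adjusted p = 0.00631), and Ptpro rose by 0.91 (SE 0.22), a call lost without any array but array 7 (adjusted p up to 0.148). Among 15 endothelial markers the tight junction gene Cldn5 rose (1.67, SE 0.38) and Ehd3 of glomerular endothelium fell (-1.44, SE 0.33). The call of Cldn5 ended without any array but array 7 and that of Ehd3 without any array (adjusted p up to 0.103 and 0.12). The general endothelial marker Pecam1, named after its values were seen, differed by -0.27 (adjusted p = 0.754). Of 3 erythroid and 8 pericyte and smooth muscle markers none was called in limma.

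In the list of resident fibroblast and stromal genes 1 of 20 was called and the median was -0.12. Cd34, a sialomucin of resting stromal and endothelial cells, rose from 4.59, 5.42 and 4.77 to 7.19, 7.31 and 8.62 (6.89-fold, log2 2.78, SE 0.50, adjusted p = 0.0117), back to the uninjured mean of 7.15. It was highest in array 9, and stayed called with the proximal tubule covariate and with arrays 7 and 8 left out. The mesenchymal cadherin Cdh11 overlapped between the times (-0.46, SE 0.28, adjusted p = 0.467). Its change was 0.15 with the tubule mean added and -1.4 (adjusted p = 0.0665) with the macrophage mean in the model. The intermediate filament Vim differed by -0.55 (adjusted p = 0.309). Aplnr, the apelin receptor of endothelium, ranked among the 10 largest rises, at 8.66, 5.70 and 8.37 against 3.31, 3.39 and 3.64 (4.13, SE 0.88). Its call ended without any array but array 8 (adjusted p up to 0.0852).

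Immediate early genes, which respond to growth signals and also to tissue digestion, gave 3 rises among 21 (median 0.30). Fos read 9.06, 9.03 and 9.71 against 5.69, 6.63 and 5.29 (10.5-fold, log2 3.40, SE 0.57, adjusted p = 0.00754), and was called without any single array and with the proximal tubule covariate (4.25). With the macrophage covariate it was not (adjusted p = 0.261). Jun rose by 1.65 (SE 0.34) and Egr1 by 1.64 (SE 0.39). The call of Jun ended without day 3 array 1 or 2 or day 14 array 7 or 9, and that of Egr1 without any array (adjusted p up to 0.0866 and 0.136).

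Housekeeping and metabolic lists shifted by small amounts with few calls. All 28 cytosolic ribosomal protein genes had negative changes (median -0.37), none called in limma. Of 23 respiratory chain and ATP synthase genes 22 had positive changes (median 0.41) and none was called. Of 22 glycolysis genes 1 rose, the aldolase Aldoa (0.71, SE 0.15), and of 26 genes of the endoplasmic reticulum 1 fell, the chaperone Dnajc3 (-0.62, SE 0.15). Both lost their calls without any array but array 9 (adjusted p up to 0.0926 and 0.147). No gene of 17 in fatty acid oxidation was called (median -0.18). Mt1, a metallothionein, fell from 12.40, 12.31 and 12.38 to 10.88, 10.60 and 10.85 (log2 -1.59, SE 0.24, adjusted p = 0.00532), the 1 call among 14 oxidative stress genes. The respiratory chain mean was 10.14, 9.64 and 9.25 in day 14 arrays 7, 8 and 9 and 9.46, 9.12 and 9.07 in the day 3 arrays. With the tubule mean added, 19 of the 23 respiratory chain changes were negative (median -0.23), as were 16 of the 17 in fatty acid oxidation (median -1.09).

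The day 7 arrays lay on the way for most called genes. Their mean fell between the day 3 and day 14 means for 136 of the 165 higher genes and 225 of the 247 lower genes. It was closer to day 14 for 88 and 160 of these lists. The genes had been chosen for a gap between day 3 and day 14, which favours a day 7 mean in between. The share over all genes tested was not counted. Between day 7 and day 3, 94 genes were called (0.695% of those tested), 37 higher (0.274%) and 57 lower (0.422%). Between day 14 and day 7 it was 7 (0.0518%), 1 higher (0.00739%) and 6 lower (0.0444%). At day 7, 4 antigen presentation genes were called higher than at day 3, with H2-Aa at a mean of 10.75 and Cd74 at 10.06. Col6a1 and Lox had day 7 means of 10.19 and 8.62. Against uninjured kidney 767 genes were still called at day 14 (5.67%), 568 higher (4.2%) and 199 lower (1.47%), 10 of the 16 collagens among the higher ones. These comparisons share arrays, and the values are given side by side only.

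**Figure D5:**
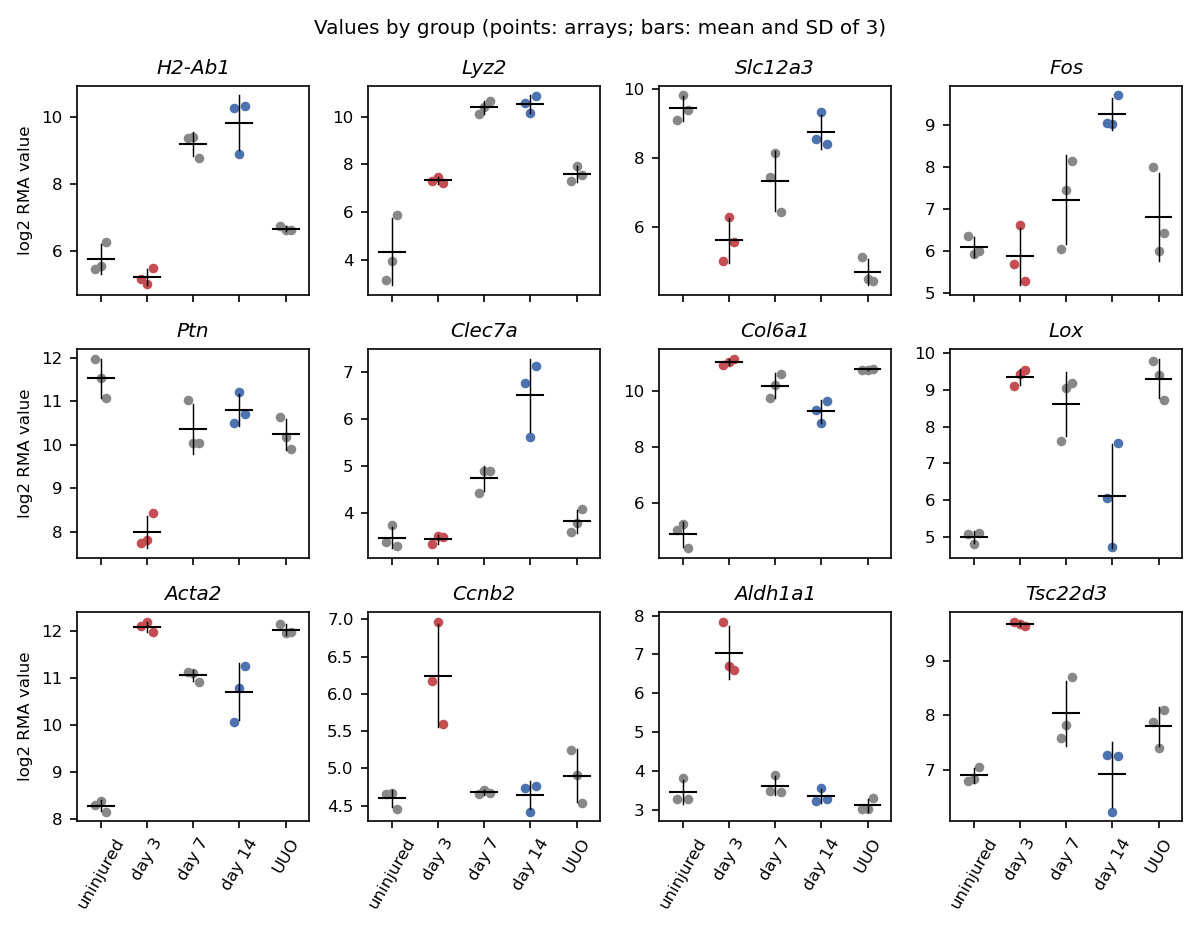
Log2 RMA values of 12 genes in uninjured kidney, at day 3, 7 and 14 after folic acid and at day 14 of UUO, 1 point per array with the mean and SD of 3 arrays; vertical axes differ between panels. Day 14 values of Acta2 and Col6a1 lie between day 3 and uninjured kidney, as does the day 14 mean of Lox, those of Aldh1a1 and Ccnb2 at the uninjured level, and those of H2-Ab1 and Clec7a above both.

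UUO against uninjured kidney shares no array with the day 14 and day 3 groups. There, 2244 genes were called (16.6%), of which 1227 were higher (9.07% of those tested) and 1017 were lower (7.52%). Of the 247 genes lower at day 14 than at day 3, 125 (50.6%, and 10.2% of the UUO list) were higher in UUO and 4 were lower. Of the 165 genes higher at day 14, 78 (47.3%, and 7.67% of the UUO list) were lower in UUO and 17 (10.3%) were higher. Across genes the 2 changes had a Pearson correlation of -0.458, a description in which genes are not replicates. The part of tubule RNA in that relation was not tested, and the proximal tubule means were 5.39 in UUO, 6.38 at day 3, 8.50 at day 14 and 9.04 in uninjured kidney.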

How the data were processed

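The 15 arrays hold amplified, biotin-labelled RNA of sorted cells. The authors deposited log2 values of 45141 probe sets. Per the submitters' processing notes these came from RMA, and the notes list affy and limma too, with neither a version nor a role. No replicate number occurs in more than 1 group, so samples were not paired. Precision is set by how few arrays there are.

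Of the probe sets 28898 named 1 gene in the platform annotation, and the one with the highest mean over all arrays stood for its gene. Genes entered the test if they exceeded the 40th percentile of 3 or more arrays (3574 dim genes left out). limma 3.58.1 in R 4.3.3 fitted 1 mean per group to all 15 arrays (lmFit and eBayes, 10 residual degrees of freedom, 2-sided, Benjamini-Hochberg). In simulated data it recovered 42% of changes of log2 1 and 85% of log2 2, with 10 false calls. The simulated noise was independent between arrays, with the same SD of a gene in every group. These figures therefore need not hold for the real arrays, whose groups differ in spread.

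The genes named are the 10 highest and 10 lowest called genes without overlap, 14 fixed genes, in each of 34 lists as many as 4 called members by p (2 if none was called), and the 6 most variable at day 14. Genes outside this rule are marked. The comparison and the lists were chosen with earlier results of these data known. Lists carry no test and are described by counts and medians. Alternatives covered normalization, filters, probe set rules, thresholds, arrays left out and marker means as covariates. Promoters came from RefSeq, build GRCm38.p6. Plots used matplotlib 3.10.9.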

Additional observations from a re-analysis of the deposited data

How the results depend on the processing

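The count of 412 called genes (165 higher, 247 lower) stayed within 1.5 times under quantile and median scaling, a trended robust fit, array weights, no filter, a filter at the 60th percentile, the mean of probe sets, the macrophage covariate and a fold of at least 2. The genes behind a similar count can differ: with the macrophage covariate 46 of the 165 and 116 of the 247 were still called. The count was 156 (66 and 90) from only the 6 arrays compared, 110 (34 and 76) at an adjusted p under 0.01, 105 (68 and 37) with both arrays 7 and 8 left out, 81 (48 and 33) once the proximal tubule mean was a covariate and 5 (5 and 0) with the distal nephron covariate, added after the data were seen. With arrays 7 and 8 left out, day 14 rests on 1 array, assumed to vary like the other groups. Leaving out 1 array at a time gave 155 to 449 calls, 49 to 192 higher and 106 to 257 lower. Called genes named in the text that changed sign were Slc22a8 (-0.01), Lama2 (0.35) and Umod (-0.63) with the distal nephron covariate, and Il1b (-0.06) with the macrophage covariate. Umod is itself part of the distal nephron mean. The cause was not tested. No paired analysis was possible because the groups share no replicate numbers. The number of arrays and dim values near the bottom of the scale limit every fold.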

Other observations

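Several genes that glucocorticoids are known to raise were lower at day 14. They were picked after their values were seen and carry no test as a group. Tsc22d3, or GILZ, read 7.27, 6.24 and 7.25 in day 14 arrays 7, 8 and 9 against 9.71, 9.67 and 9.63 in day 3 arrays 1, 2 and 3 (6.72-fold, log2 -2.75, SE 0.31, adjusted p = 0.000938 in limma), beside 6.90 in uninjured kidney. Fkbp5, a chaperone of the steroid receptor, fell by 2.26 (SE 0.34), and the transcription factor Zbtb16 fell by 1.42 (SE 0.14, adjusted p = 0.000328). Both, like Tsc22d3, stayed called without any single array and with the proximal tubule covariate. Hsd11b1, the enzyme that makes active glucocorticoid inside cells, went from 10.88, 10.83 and 10.45 to 7.39, 7.19 and 8.10 (log2 -3.16, SE 0.50), a call that ended with the proximal tubule covariate (-2.23, adjusted p = 0.0822). Other probe sets changed by -0.17 and -1.46 for Fkbp5, -1.0 and -0.6 for Tsc22d3 and -3.87 for Zbtb16, so the size of these falls depends on the probe set. Other genes of this kind did not pass, namely Per1 (-0.57, adjusted p = 0.35), Sgk1 (-0.64, 0.318), Klf9 (-1.33, 0.0966) and Dusp1 (-0.57, 0.333).

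Further strong rises, again picked after their values were seen, were those of myeloid genes and of a growth factor. Clec7a, the beta-glucan receptor of myeloid cells, read 6.76, 5.62 and 7.11 against 3.34, 3.51 and 3.50 at day 3 and a day 7 mean of 4.74 (log2 3.05, SE 0.31, adjusted p = 0.000447). Mmp12, the macrophage elastase, read 6.64, 5.31 and 7.32 against 3.82, 3.79 and 3.52 (log2 2.71, SE 0.36) with a day 7 mean of 4.27. Array 8 was the lowest for both, as it was for the macrophage mean. Ptn, pleiotrophin, a heparin-binding growth factor, rose from 7.74, 7.81 and 8.42 to 10.51, 11.22 and 10.70 (log2 2.82, SE 0.33), close to the uninjured mean of 11.53, while its other probe sets changed by 3.20 and 0.16.

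Between day 14 and day 7, 7 genes were called. Epb41l4b rose by 1.03 (SE 0.13, adjusted p = 0.0268). Itih5, which binds hyaluronan, fell by 2.51 (SE 0.27, adjusted p = 0.00735), from a day 7 mean of 7.21 to 4.70. Clca3a1 (-3.29), Gem (-2.33), Nkd2 (-1.95), Fam126a (-1.64) and Bicc1 (-1.15) fell as well.

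Array 9 alone had high values of Rexo5 (10.65, with 6.31 and 5.42 in arrays 7 and 8), Dio2 (8.66, with 4.71 and 4.74) and the neutrophil chemokine Cxcl2 (8.40, with 5.29 and 3.36), 3 of the 6 genes most variable at day 14. Dpysl3 read 7.63, 3.83 and 7.93 at day 14 and 7.81, 4.70 and 7.69 at day 3, with 1 low array in each group.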
